A study of Mus musculus with 16 samples.

Results

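Apolipoproteins are the protein part of the lipoproteins that carry triglyceride and cholesterol in blood, and the liver makes most of them. Described here are 9 apolipoprotein genes (Apoa1, Apoa2, Apoa4, Apoa5, Apob, Apoc1, Apoc2, Apoc3 and Apoe) and Mttp, which encodes the microsomal triglyceride transfer protein. Each gene was read from the transcript cluster (the probe group of a gene on the array) that the platform annotation gives to that gene only, and of several such clusters the one of highest mean was taken. This gave 10 of the 18820 genes with a cluster of their own, and all 10 were among the 14275 genes tested, since each exceeded an intensity of 20 (log2 4.32) on at least 5 arrays. Only Apoa4 had a second cluster.

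The livers came from 16 male C57BL/6J mice aged 12 months, with 1 array per mouse and 4 mice on each of 4 diets eaten since the age of 9 weeks. The diets were control (C, AIN-93W), calorie restriction by 30% (CR), medium fat with 25% of energy from fat (MF), and an intermittent diet (INT), in which weeks of MF ad libitum took turns with weeks of 40% restriction. Of each diet, 2 mice had a gavage of carboxymethyl cellulose alone (mock) and 2 had the PPARα agonist pirinixic acid (Wy in the sample titles) in a dose of 160 mg/kg, given after a fast of 4 h and followed by 6 h without food until death. PPARα is the nuclear receptor that turns on fatty acid oxidation in the fasted liver. Each treatment had 1 mouse of high and 1 of low body weight per diet, so that 8 mock mice and 8 Wy mice form 8 pairs matched on diet and body weight class. The INT livers were taken in a week of MF feeding. CR mice had been fed daily portions while C and MF mice ate freely, so that restriction and meal timing cannot be told apart. Array names give the body weight class first, then the diet and the gavage (high C mock). The 2 high INT arrays carry the array code G073 and the other 14 the code G067. Within INT, code and body weight class cannot be told apart.

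In the hepatocyte, Mttp loads lipid onto the nascent Apob protein, the structural backbone of very low density lipoprotein (VLDL). Apoa1 and Apoa2 are the main proteins of high density lipoprotein (HDL). The exchangeable apolipoproteins set the fate of triglyceride in blood: Apoc2 activates lipoprotein lipase, Apoc3 inhibits it, Apoa5 promotes its action, and Apoe is a ligand of the receptors that clear remnants. Apoa4 is secreted on triglyceride-rich particles, by enterocytes as well as by the liver. Several of these genes lie in clusters. In GRCm38.p6 (RefSeq), Apoa1, Apoc3, Apoa4 and Apoa5 lie within 43.3 kb of chromosome 9 (46228630 to 46271921), and Apoc2, Apoc1 and Apoe within 29.7 kb of chromosome 7 (19671579 to 19701310). Apoa2 lies on chromosome 1 (171221564 to 171226379), Mttp on chromosome 3 (138089855 to 138143418) and Apob on chromosome 12 (7977629 to 8016839).

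The 250 bases before an annotated start of 4 of the genes are printed because the results turn on them: Mttp, Apoa4 and Apoc2 varied most of the 10 over the 16 arrays, and Apoe varied least. They were taken from RefSeq (GRCm38.p6) and read 5′ to 3′ on the strand of the gene. Apoe had windows for several annotated starts. The first listed is printed, and it lies inside the span of the gene. Capitals mark AGGTCA, the half-site of nuclear receptors that PPARα is known to bind in pairs, or TGACGT, the half-site of cAMP response elements, each looked for on both strands; in Mttp the match is on the opposite strand and reads ACGTCA.
Mttp, chr3:138143419-138143668, minus strand: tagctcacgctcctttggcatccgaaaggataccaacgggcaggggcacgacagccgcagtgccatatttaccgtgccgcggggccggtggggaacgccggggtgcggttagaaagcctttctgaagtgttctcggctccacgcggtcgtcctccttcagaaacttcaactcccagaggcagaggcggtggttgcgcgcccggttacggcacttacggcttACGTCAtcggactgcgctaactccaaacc
Apoa4, chr9:46240594-46240843, plus strand: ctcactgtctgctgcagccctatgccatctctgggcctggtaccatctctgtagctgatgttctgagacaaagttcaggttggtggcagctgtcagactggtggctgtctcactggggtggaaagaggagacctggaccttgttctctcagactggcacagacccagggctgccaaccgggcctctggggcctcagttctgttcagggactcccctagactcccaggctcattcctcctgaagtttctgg
Apoc2, chr7:19677942-19678191, minus strand: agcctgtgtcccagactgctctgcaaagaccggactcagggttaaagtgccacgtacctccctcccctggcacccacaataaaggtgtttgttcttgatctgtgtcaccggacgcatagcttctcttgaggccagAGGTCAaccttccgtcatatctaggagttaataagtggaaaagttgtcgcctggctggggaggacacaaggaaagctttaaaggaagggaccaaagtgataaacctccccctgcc
Apoe, chr7:19699189-19699438, minus strand: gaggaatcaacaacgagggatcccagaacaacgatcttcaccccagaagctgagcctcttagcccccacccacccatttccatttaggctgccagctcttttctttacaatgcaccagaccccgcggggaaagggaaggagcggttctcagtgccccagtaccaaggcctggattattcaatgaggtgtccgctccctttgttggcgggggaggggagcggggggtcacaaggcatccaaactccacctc
Of the 10 genes, 8 had at least 1 such window, with 12 windows in all. AGGTCA was found in 2 of the 12, that of Apoc2, 115 bases before the start, and 1 of the windows of Apoa2, 238 bases before it, and it occurs in 14.024% of all 32851 windows of the table. TGACGT was found in 1 window, 29 bases before the start of Mttp, and in 6.469% of all windows. The TATA box letters TATAAA stood in 5 of the 12 windows, of Apoa2, Apoa5, Apob and Apoe, and in 12.368% of all windows. The Apoe window with TATAAA is not the one printed. The 2 windows of Apoa5 overlap and hold the same TATAAA, so that 1 site is counted in both. Neither AGGTCANAGGTCA, 2 half-sites 1 base apart, which contains AGGTCA, nor the HNF4 element CAAAGTCCA was found in any of the 12, and over all windows they occur in 0.033% and 0.384%. A match is a description of these letters and not a binding site.

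The liver identity of the samples was checked on fixed markers. The 7 hepatocyte markers measured lay between 12.4 and 13.5 log2 on every array, with Alb, the serum albumin gene, between 13.35 and 13.50. The arrays were alike in level, with medians of 7.07 to 7.21 and correlations of 0.968 to 0.995 between them. In whole liver, fewer cells of a type and less RNA per cell cannot be told apart.

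All 10 genes lay high in the range of the arrays, whose highest value was 13.7 log2, and they fell into a group that hardly moved and a group that did. Apoe varied least, between 13.20 and 13.28 with a standard deviation (SD) of 0.0282, the smallest of the 14275 genes tested. Apoa2 (13.20 to 13.32, SD 0.0324), Apoc1 (12.81 to 12.97, SD 0.0378), Apoc3 (12.98 to 13.16, SD 0.0498), Apoa1 (13.24 to 13.38, SD 0.0516) and Apob (12.56 to 12.77, SD 0.055) also had very small SDs, and no more than 0.483% of the genes tested lay below the SD of any of them. As these 6 genes were grouped by their SD over the same arrays, small differences in the comparisons below follow from the grouping. The other 4 varied more. Apoa4 ran from 12.03 to 13.15 with an SD of 0.339, above that of 87.9% of genes, and Mttp from 11.33 to 11.96 with an SD of 0.24, above that of 75.2%. Apoc2 (11.69 to 12.22, SD 0.166) and Apoa5 (11.58 to 12.07, SD 0.125) were near the spread of a typical gene, since the median SD over all genes tested was 0.161. Values of different genes come from different probes and are not set against each other as amounts.

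**Figure D1:**
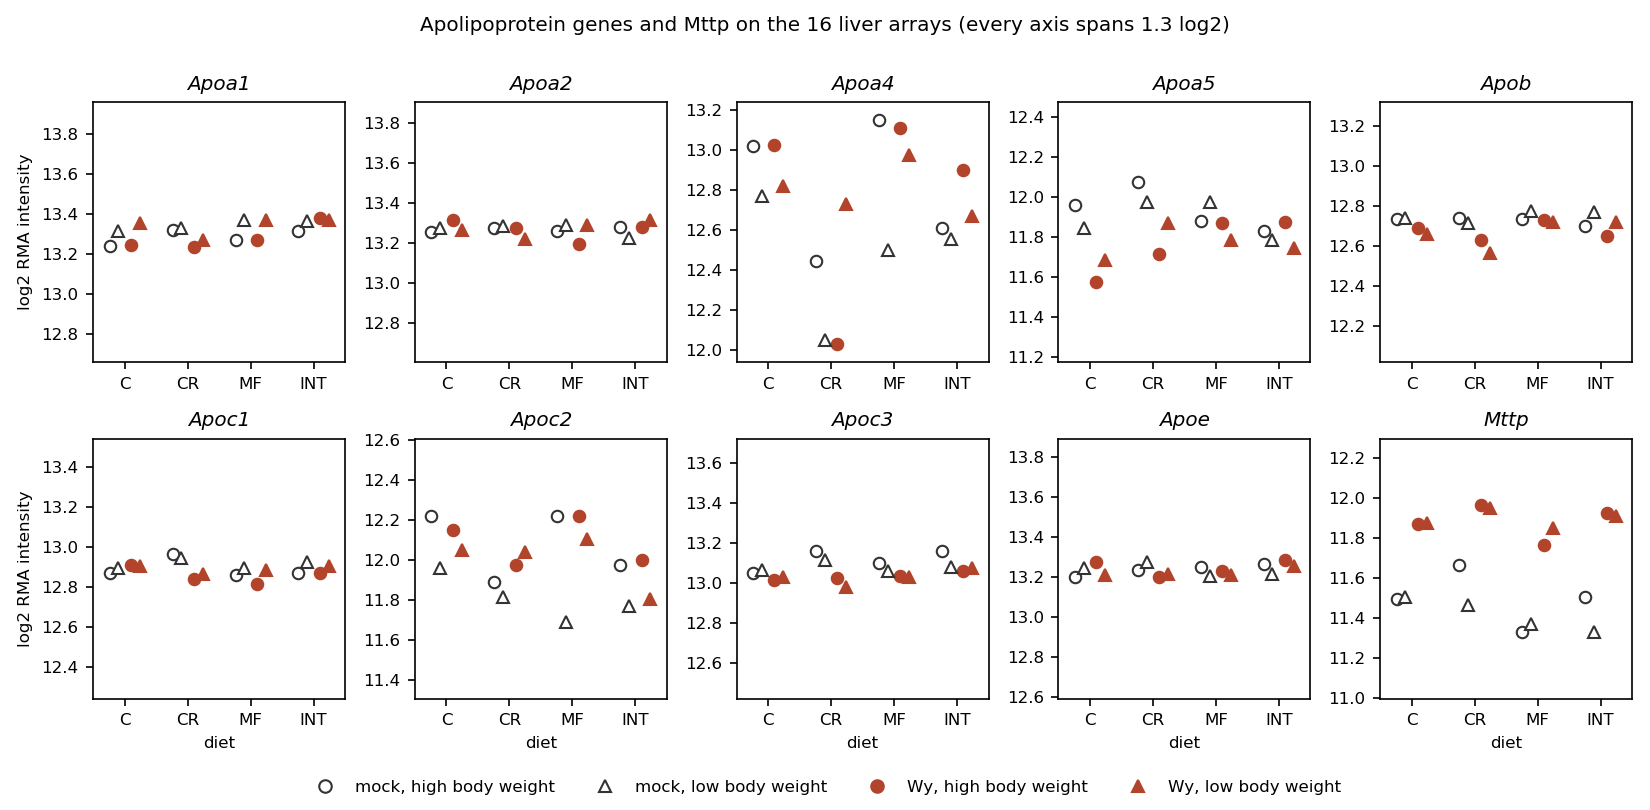
Log2 RMA intensity of the 10 genes on the 16 arrays by diet, with open symbols for mock, red for Wy, circles for high and triangles for low body weight; every panel spans 1.3 log2. Mttp is higher in all 8 Wy arrays (11.76 to 11.96) than in the 8 mock arrays (11.33 to 11.66), Apoa4 is lowest in CR, and Apoa1, Apoa2, Apob, Apoc1, Apoc3 and Apoe form nearly flat rows.

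Spread was small for bright genes in general. The 24 genes with a mean of at least 13 log2 had a median SD of 0.0497, the 198 genes from 12 to 13 one of 0.108, and the 1342 genes from 10 to 12 one of 0.156. With Wy, 4.17% of the 24 brightest genes passed the test, against 30.3% and 40.2% in the next levels. Of the 6 flat genes, Apoa1, Apoa2, Apoc3 and Apoe have a mean of at least 13. The part of brightness in their flatness was not tested.

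**Figure D2:**
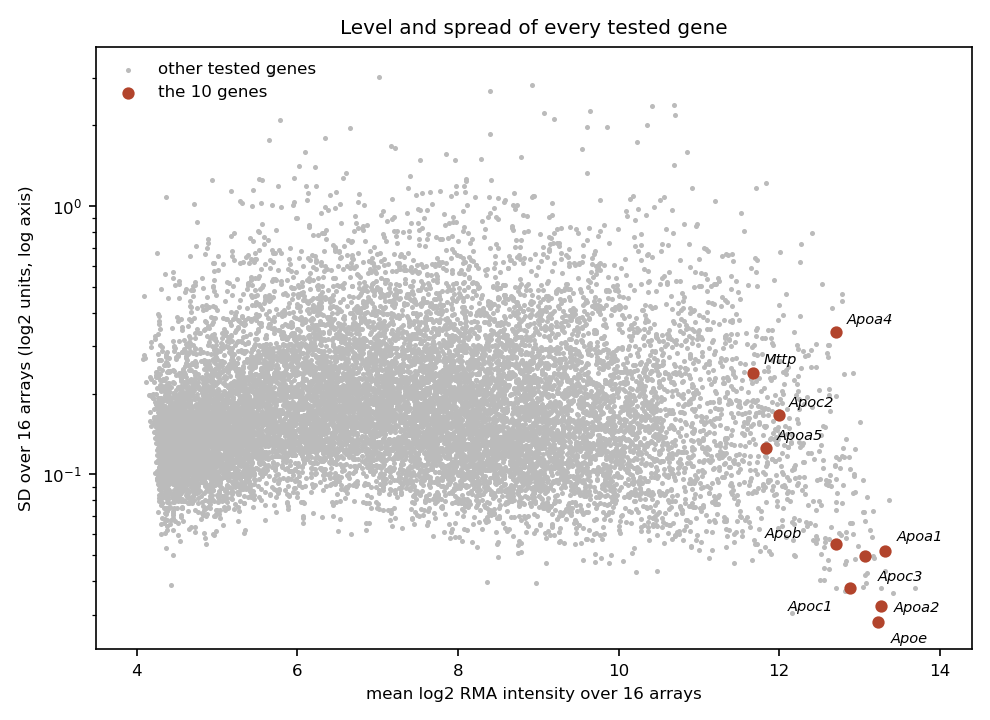
Mean (x, log2 RMA intensity) against SD over the 16 arrays (y, log2 units on a log axis) for each gene tested, with the 10 genes in red. Apoe has the lowest SD of all (0.0282), 5 more of the 10 lie at the lower right edge, and Apoa4 (0.339) and Mttp (0.24) lie well above it.

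To see which of the 10 genes respond to acute PPARα activation, Wy and mock livers were compared within the 8 pairs. Mttp rose and was the only one called, at an adjusted p under 0.05 in limma with the Benjamini-Hochberg adjustment over all 14275 genes. That is 1 of 10, where 28.3% of all genes tested were called. Mttp was at 11.33 in the lowest, 11.48 in the median and 11.66 in the highest mock array, and at 11.76, 11.89 and 11.96 in the Wy arrays. The arrays of the 2 treatments did not overlap, which held for 4.85% of all genes. The fitted rise was 0.43 ± 0.04 log2 (standard error, SE), a 1.35-fold change with a limma adjusted p of 3.23e-05.

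Mttp was higher with Wy in 8 of 8 pairs. The differences were 0.38 in C, 0.30 in CR, 0.44 in MF and 0.42 in INT for high body weight, and 0.37, 0.48, 0.48 and 0.58 for low body weight. The smallest was that of the high CR pair, whose mock array held the highest mock value (11.66). No difference in the Wy effect between diets was detected for Mttp (limma interaction, adjusted p = 0.997), nor between body weight classes, at 0.38 ± 0.06 (SD, n = 4) in high and 0.48 ± 0.09 in low (limma interaction, adjusted p = 0.999).

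Apoa5, the promoter of lipase action, was lower with Wy in 7 of 8 pairs without passing the test over all genes. It ran from 11.79 to 12.07 in mock, with a median of 11.92, and from 11.58 to 11.88 with Wy, with a median of 11.77, so that the treatments overlapped. The fitted difference was −0.15 ± 0.06 log2 (SE; limma adjusted p = 0.0718). The largest differences were in the high C (−0.38) and high CR (−0.36) pairs, and the high INT pair was the only one with a rise (0.05). Without the 2 high INT arrays, the only ones with the other array code, the difference was −0.18 with a limma adjusted p of 0.0447, and leaving out either of them gave the same value.

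Apob and Apoc3 differed little but in one direction. Apob was lower with Wy in 8 of 8 pairs by 0.0054 to 0.15 log2, from a mock mean of 12.74 to a Wy mean of 12.67, and Apoc3 was lower in 8 of 8 pairs by 0.0061 to 0.14, from 13.10 to 13.03. Of all genes tested, 10.9% were lower in all 8 pairs and 8.82% higher in all 8. The fitted differences were −0.07 ± 0.04 for both, with limma adjusted p of 0.223 for Apob and 0.227 for Apoc3. An exact two-sided sign-flip permutation test on the 8 pair differences, added after the data were seen and run on each of the 10 genes without adjustment, gave p = 0.0078 for Apob, Apoc3 and Mttp, the smallest that 8 pairs allow, and p = 0.0312 for Apoa5. Differences of the same sign in 8 of 8 pairs always give this smallest p. For Apob, Apoc3 and Mttp it therefore restates the sign counts and is no separate evidence. The 10.9% and 8.82% of all genes lower or higher in all 8 pairs would get the same p. limma and the sign-flip test use different errors. The residual SD of the 6 flat genes was 0.031 to 0.0376. Moderation towards the prior SD of 0.117 shared by all genes raised it to between 0.0755 and 0.0774.

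The remaining 6 genes were not called with Wy. Apoa4 differed by 0.15 ± 0.10 log2 (limma adjusted p = 0.324), with pair differences from −0.41 in high CR to 0.68 in low CR, and was higher in 6 of 8 pairs. Its mean difference was −0.04 ± 0.29 (SD, n = 4) in high and 0.33 ± 0.30 in low body weight pairs, and the interaction had an unadjusted limma p of 0.0624 and an adjusted p of 0.999. Apoc2 differed by 0.10 ± 0.06 (limma adjusted p = 0.219) and was higher in 6 of 8 pairs. Apoa1, Apoa2, Apoc1 and Apoe differed by −0.03 to 0.0011. Over the 6 flat genes the 95% intervals of the Wy difference ran from −0.15 to 0.086 at the widest. No gene at all was called for a Wy effect that differed between diets or between high and low body weight (0% of those tested), and at an unadjusted p under 0.05 limma gave 669 and 673 genes, none of the 10 among them.

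**Figure D3:**
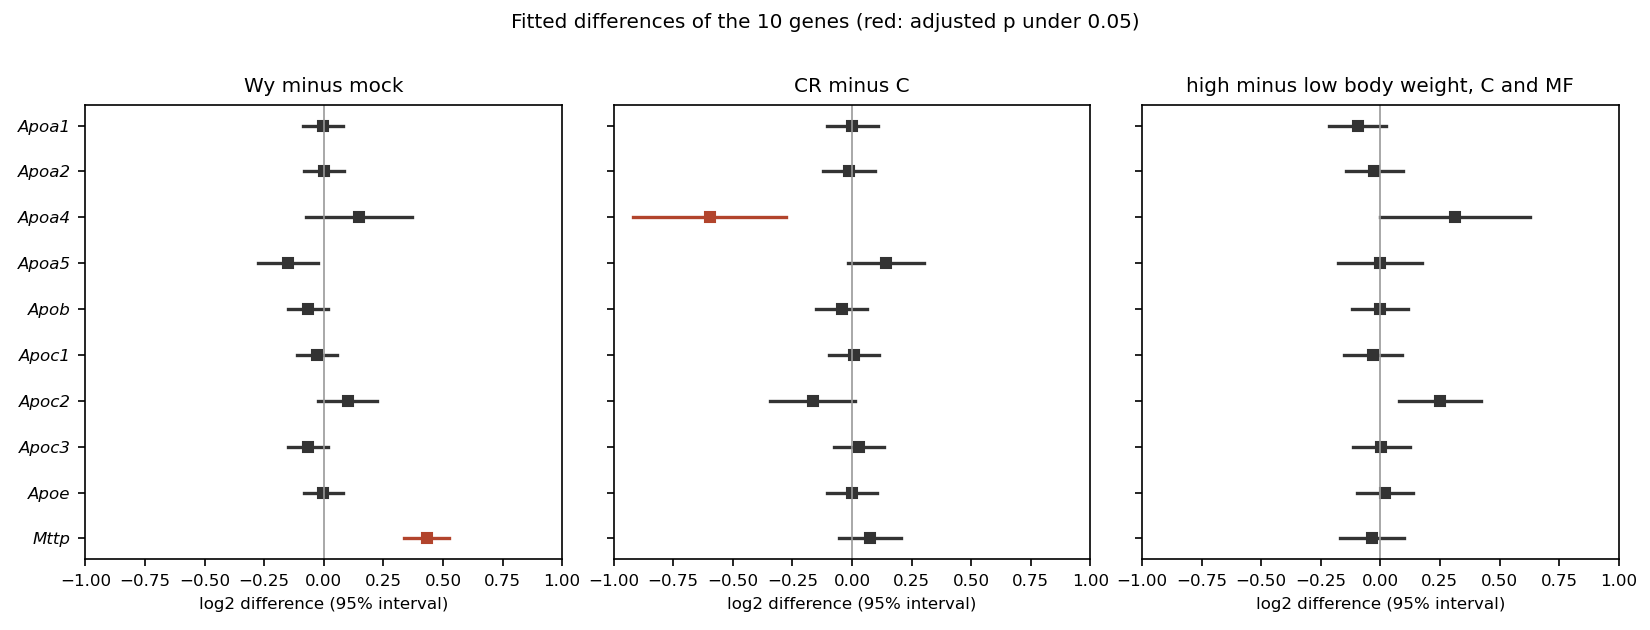
Fitted log2 differences of the 10 genes (squares) with 95% intervals (lines) for Wy minus mock, CR minus C, and high minus low body weight in C and MF, in red where the limma adjusted p was under 0.05. Mttp with Wy (0.43) and Apoa4 in CR (−0.60) are called, and the intervals of the 6 flat genes are narrow and span 0.

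The diets were compared with 4 mice each, taking treatment and body weight class into account. Apoa4 fell in CR and was the only one of the 10 genes called for diet, at 1 of 10 in CR minus C, where 10.5% of all genes were called. The C arrays held 13.02 (high mock), 13.03 (high Wy), 12.77 (low mock) and 12.82 (low Wy). In CR the values were 12.44, 12.03, 12.05 and 12.73 in the same order, so that every CR array lay below every C array, which held for 13% of all genes. The low CR Wy array (12.73) came closest to C. The fall was −0.60 ± 0.15 log2 (SE), 1.51-fold lower, with a limma adjusted p of 0.0219.

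This call for Apoa4 in CR rested on few mice. All 4 matched differences were negative, from −0.997 to −0.0906. The call was lost without the high C mock (−0.55, limma adjusted p = 0.0715), high C Wy (−0.61, 0.0504), low C mock (−0.59, 0.0548), low CR mock (−0.55, 0.065) or high CR Wy array (−0.42, 0.0561), and the difference stayed negative in all 16 fits that left out 1 array. Within the mock arrays the difference was −0.65 (limma adjusted p = 0.161) and within the Wy arrays −0.54 (0.371), with 2 mice per diet in each.

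Against MF, Apoa4 was lower in CR by 0.62 ± 0.15 log2 (limma adjusted p = 0.0158), again 1 of 10 genes, where 12.7% of all genes were called. The MF values were 13.15 (high mock), 13.11 (high Wy), 12.50 (low mock) and 12.97 (low Wy). The low MF mock array overlapped CR, but each of the 4 matched differences was negative, from −1.08 to −0.25. Without the high MF mock array the difference was −0.54 with a limma adjusted p of 0.0583.

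INT took a middle place for Apoa4. Its arrays held 12.61, 12.90, 12.55 and 12.67, for a mean of 12.68 ± 0.15 (SD, n = 4), against 12.91 ± 0.13 in C, 12.93 ± 0.30 in MF and 12.31 ± 0.34 in CR. The first 2 INT arrays, of high body weight, are those of code G073. INT was below C in 4 of 4 matched comparisons (−0.23 ± 0.15 log2, SE; limma adjusted p = 0.647) and above CR in 3 of 4 (0.37 ± 0.15, 95% interval 0.05 to 0.69, adjusted p = 0.143), so that neither difference was called, though the interval of the second excludes 0. Over the 16 fits that left out 1 array, INT minus CR ran from 0.20 to 0.54, with limma adjusted p from 0.0194 to 0.368. Only the fit without the low CR Wy array was called (0.54). C and MF differed by 0.02 ± 0.15. Over the 4 diets the limma F test gave Apoa4 an adjusted p of 0.0394 (1 of 10 genes, against 9.86% of all genes), and this call was lost in 14 of the 16 fits that left out 1 array, where the adjusted p reached 0.12. The call was also lost within the arrays of code G067.

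The second transcript cluster of Apoa4 was also lowest in CR, with INT between CR and the other diets, while C and MF stood in the other order (MF minus C −0.03 ± 0.22 log2). It was dimmer, from 7.65 to 9.22 log2, and followed the first over the 16 arrays with a Pearson r of 0.96, the 2 clusters sharing the same RNA of each mouse. Its CR arrays held 8.42, 7.65, 7.79 and 8.44, while its C arrays held 9.07, 9.07, 8.75 and 8.90. The fitted CR minus C difference of this cluster was −0.87 ± 0.22 log2 (limma adjusted p = 0.0226), and CR minus MF was −0.84 ± 0.22 (0.0232).

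**Figure D4:**
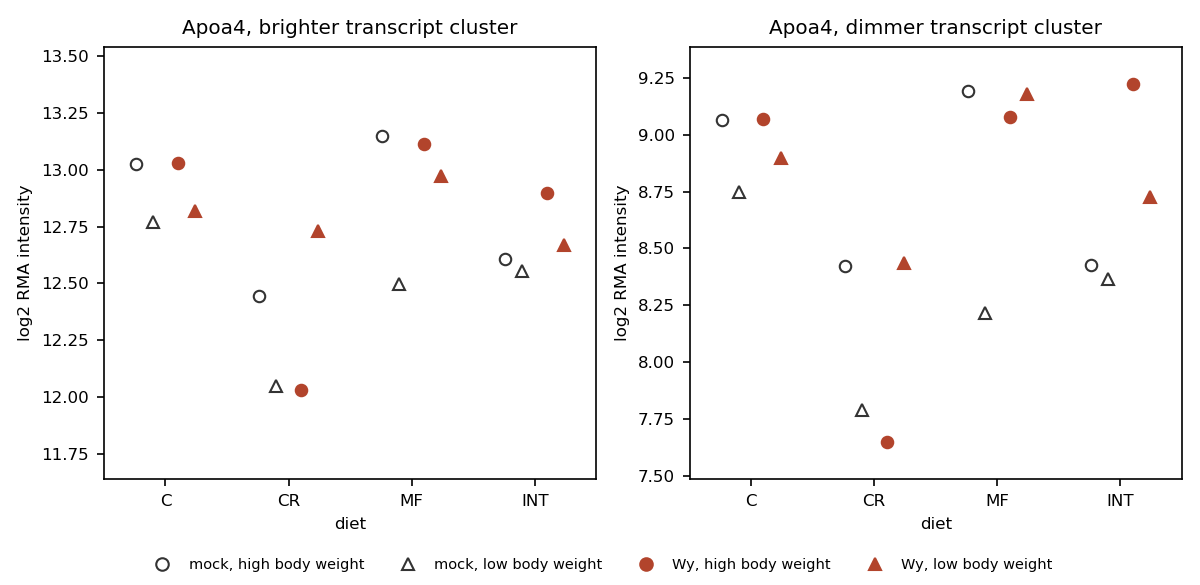
Log2 RMA intensity of the 2 Apoa4 transcript clusters on the 16 arrays by diet, with open symbols for mock, red for Wy, circles for high and triangles for low body weight, on axes of equal span. In both panels the CR arrays lie below the C arrays, and the high CR Wy (12.03 and 7.65) and low CR mock arrays (12.05 and 7.79) are lowest.

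Enterocytes also express Apoa4, so their markers were read beside it. Of the 6 markers, Sis and Cdx2 stayed under the filter on all 16 arrays, and Alpi, Vil1 and Lct never exceeded 4.85 log2. Fabp2, the intestinal fatty acid binding protein gene, was the exception, at 9.19 to 11.05, and it fell by 1.05 ± 0.13 log2 in CR minus C (limma adjusted p = 0.000308) and by 1.02 in CR minus MF. The summed intensity of the list came mostly from Fabp2, so it follows that gene more than a cell type. It was 666 to 1244 in CR, against 1598 to 2096 in C, 1661 to 2137 in MF and 1547 to 2215 in INT. Alas2, the erythroid heme synthesis gene, fell by 1.34 in CR minus C, while Slc4a1, the other erythroid marker tested, differed by 0.30 and was not called. Also in CR minus C, Col1a1, a collagen gene of stellate cells, fell by 0.42 and Cela1, a pancreatic elastase gene, by 0.30. In CR minus MF, Alas2, Col1a1 and Cela1 fell by 1.34, 0.56 and 0.32 (Slc4a1 differed by 0.35), Lyve1 of the endothelial list fell by 1.32, and Kdr of the same list and Cps1 of hepatocytes rose by 0.47 and 0.31. None of the 8 macrophage and Kupffer cell markers was called in these diet comparisons or with Wy. With Wy, Fabp2 rose by 0.34, Plin1 of adipocytes by 0.16 (the other adipocyte marker tested, Retn, differed by −0.08), and Cps1 and Ahsg of hepatocytes fell by 0.32 and 0.12. The part of these in the results of Apoa4 and Mttp was not tested.

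The other genes were not called for diet. Mttp was higher in CR than in MF in 4 of 4 matched comparisons, at 0.18 ± 0.06 log2 (SE; limma adjusted p = 0.0638). Apoa5 was higher in CR than in C in 4 of 4, by 0.11 to 0.18 and at 0.14 ± 0.07 (adjusted p = 0.254 in limma). Apoc2 was lower in INT than in C in 4 of 4, at −0.21 ± 0.08 (adjusted p = 0.459 in limma), and lower in CR than in C in 4 of 4, at −0.16 ± 0.08 (adjusted p = 0.237). Agreement in 4 of 4 was not particular to these cases. Mttp was also lower in MF than in C and in INT than in CR in 4 of 4. Among flat genes, Apoa1 was higher in MF and in INT than in C in 4 of 4. Apoc1, Apoc3 and Apoe were higher in INT than in MF in 4 of 4. The share of all genes tested that agree in 4 of 4 was not counted, here or for Apoa4. The 6 flat genes differed between C and CR by −0.04 to 0.03, with 95% intervals that reached −0.15 and 0.14. Neither MF minus C nor INT minus MF called any gene (0% of those tested), and at an unadjusted limma p under 0.05 these gave 628 and 1629 genes, with none of the 10 in either. INT minus C called 1 gene (0.00701% of those tested), which is not of the 10.

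Body weight varied widely among C and MF mice in this study and little among CR and INT mice, so high and low body weight were compared in these 2 sets of diets. None of the 10 genes was called in C and MF, where limma called 7.39% of all genes, and only Apoc2 had an unadjusted p under 0.05. Apoc2 is the activator of lipoprotein lipase. Its high body weight arrays in C and MF held 12.22 (C mock), 12.15 (C Wy), 12.22 (MF mock) and 12.22 (MF Wy), and the low body weight arrays 11.96, 12.05, 11.69 and 12.11. High and low did not overlap, which held for 10.6% of all genes. The difference was 0.25 ± 0.08 log2 (SE, limma adjusted p = 0.0802). Over all 16 fits that left out 1 array it ran from 0.16 to 0.34, with limma adjusted p from 0.0258 to 0.309. It was called in 1 of these, that without the low MF Wy array (0.34).

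Apoa4 had a similar order in C and MF. High body weight arrays held 13.02 to 13.15 and low ones 12.50 to 12.97, without overlap, for a difference of 0.31 ± 0.14 log2 (limma adjusted p = 0.218). In the second Apoa4 cluster high and low did overlap, as the low MF Wy array (9.18) lay above 3 of the 4 high arrays, and the difference was 0.34 ± 0.23 (adjusted p = 0.42 in limma). In CR and INT the Apoa4 difference was −0.0045 ± 0.14 and that of Apoc2 0.10 ± 0.08 (adjusted p = 0.999 and 0.969 in limma). In that set both high INT arrays carry code G073 and all others G067. The difference between the 2 diet sets was not called for Apoa4 (0.32 ± 0.20, adjusted p = 0.537) or Apoc2 (0.15 ± 0.11, 0.618) in limma. Over all diets, Apoc2 was higher in high body weight by 0.18 ± 0.06 (adjusted p = 0.237). No gene was called in that comparison or in CR and INT, where limma gave 2000 and 679 genes at an unadjusted p under 0.05, with Apoc2 the only one of the 10 in the first and none in the second. The 6 flat genes differed by −0.10 to 0.02 between high and low in C and MF, with intervals from −0.21 to 0.14. Of these, Apoa1 was lower with high body weight, at 13.24 to 13.27 against 13.32 to 13.37 in low, also without overlap. Its difference was −0.10 ± 0.05 (limma adjusted p = 0.325).

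Cell type markers were called in the same comparison of C and MF. Of 8 macrophage and Kupffer cell markers, Cd68 was higher by 0.76 log2 and Timd4 lower by 0.71 with high body weight, and the median of the list was 0.38. Col1a1 of stellate cells was higher by 0.55, and Lyve1 and Pecam1 of endothelial cells by 0.97 and 0.28. Cps1 of hepatocytes and Alas2 of erythroid cells were lower by 0.28 and 0.45. The list medians were 0.23 for stellate cells, −0.02 for endothelial cells, −0.01 for hepatocytes and −0.18 for the 2 erythroid markers tested. Most of the endothelial list was thus not higher. The part of these in the values of Apoc2 and Apoa4 was not tested.

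Apoa4 and Apoc2 varied together. Over the 16 arrays the Pearson r between them was 0.72, the highest of the 45 pairs of the 10 genes, and it was 0.71 after the terms for diet, treatment and body weight class were removed. These terms allow 1 body weight difference shared by all diets. The estimates of both genes were larger in C and MF than in CR and INT, though this was not called. Part of the body weight difference can thus remain in the 0.71. The lowest r was that of Apob and Mttp at −0.73, which was 0.07 once the same terms were removed, and the median was 0.06. Neighbours on a chromosome had values of both signs. On chromosome 9, Apoc3 had an r of 0.50 with Apoa5 (0.04 after removal of the terms), 0.26 with Apoa1 (0.58) and −0.29 with Apoa4 (−0.12). On chromosome 7, Apoc1 had an r of 0.22 with Apoe (0.32) and −0.58 with Apoc2 (−0.38). These values share arrays and the normalization, and are a description.

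**Figure D5:**
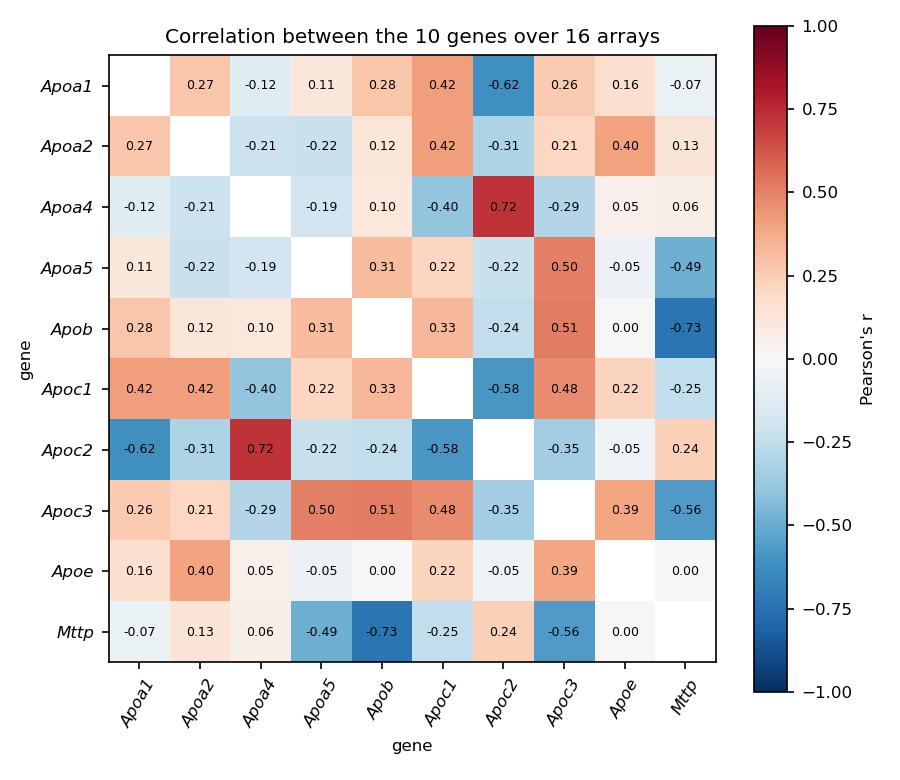
Pearson r between each pair of the 10 genes over the 16 arrays, from blue (−1) through white (0) to red (1). The pair of Apoa4 and Apoc2 (0.72) is the most positive and that of Apob and Mttp (−0.73) the most negative.

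Outside the 10 genes, the patterns most like that of Mttp over the 16 arrays were those of Ctif (r = 0.97), Atat1 (0.96) and Acot4 (0.96), a peroxisomal acyl-CoA thioesterase, and all 3 rose with Wy (by 0.78, 0.62 and 1.28 log2). For Apoa4 they were Cntnap1 (0.92), Arsg (0.91) and Lyve1 (0.91), a receptor of endothelial cells, with CR minus C differences of −1.83, −1.13 and −0.86, of which the last was not called. For Apoc2 they were Lgals1 (0.91), Sulf2 (0.89) and Cep295nl (0.89). Cep295nl lay near the filter limit, at 4.29 to 4.68 log2, and Cntnap1 ran from 3.76 to 6.86. All were picked by r over the same arrays, so their Wy and CR differences follow from that choice and are no separate result.

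Other genes of lipoprotein metabolism were called in both directions with Wy, where 28.3% of all genes tested were called. Of 17 assembly and secretion partners tested, 3 rose and 4 fell, with a median of −0.02 log2 against −0.0054 over all genes. Lpcat3, which makes the polyunsaturated phospholipids of VLDL, rose by 0.40 ± 0.05 (SE), and Pla2g12b, a factor in VLDL lipidation, rose by 0.27 ± 0.05. Mia2 and Mia3, exit factors for large cargo at the endoplasmic reticulum, fell by 0.36 ± 0.06 and 0.32 ± 0.06. Of 9 other apolipoproteins and editing factors, 1 rose and 2 fell (median 0.02): A1cf, the cofactor of Apob mRNA editing, rose by 0.39, while Apof and Clu fell by 0.18 and 0.13. Of 7 HDL genes, 2 rose and 2 fell (median −0.06): Lipg, endothelial lipase, rose by 0.62 and the cholesterol exporter Abca1 by 0.24, while the HDL receptor Scarb1 fell by 0.21 and Pon1 by 0.16.

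Among 7 receptors and clearance genes, 2 rose and 2 fell with Wy (median −0.07). The heparan sulfate proteoglycan Sdc1 rose by 0.55 ± 0.09 and the VLDL receptor Vldlr by 0.45 ± 0.10, and Lsr and Lrp1 fell by 0.22 and 0.17. In the lipoprotein lipase system, with 5 genes tested (median 0.08), the lipase inhibitor Angptl4 rose by 0.65 ± 0.05 and Angptl8 fell by 0.86 ± 0.14. Of 13 transcription factors and coactivators, 2 rose and 2 fell (median 0.0035). Ppargc1b rose by 0.61 and Creb3l3, an activator of Apoa4 and Apoc2 among others, by 0.34, while Nr5a2 fell by 0.43 and the bile acid receptor Nr1h4 by 0.23.

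In CR minus C, where 10.5% of all genes tested were called, calls in these lists again ran both ways. Of the assembly partners, Tm6sf2, a factor in VLDL lipidation, rose by 0.60 ± 0.09 log2, and Mia2 and Pla2g12b fell by 0.25 each (1 up and 2 down of 17, median −0.04 against −0.01 over all genes). Apom rose by 0.36 and Clu fell by 0.24, Vldlr and Lsr rose by 0.72 and 0.48, Lmf1, needed for lipase folding, fell by 0.23, and Nr1h4 fell by 0.41 while Nr5a2 rose by 0.27. None of the 7 HDL genes was called, with a median of −0.0018. The list medians of the other 4 were 0.02 for other apolipoproteins, 0.17 for receptors, −0.01 for the lipase system and 0.08 for transcription factors.

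In INT minus CR, where 9.85% of all genes were called, Vldlr was lower by 1.17 ± 0.16 log2, Tm6sf2 by 0.77 ± 0.09, Lsr by 0.46 ± 0.12 and Lpcat3 by 0.30 ± 0.07. Nr1h4 was higher by 0.39, Apon by 0.32, Pla2g12b by 0.29 and Lrp1 by 0.24, and no HDL or lipase gene was called. This comparison shares the CR arrays with CR minus C. In INT minus MF no gene of the lists was called. With high body weight in C and MF, Lpl rose by 1.00 ± 0.27, Vldlr by 0.71 ± 0.14 and the cholesterol exporter Abcg1 by 0.50 ± 0.09, and Apom and Nr5a2 fell by 0.49 ± 0.09 and 0.26 ± 0.06, while none of the 17 assembly partners was called.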

How the data were processed

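Liver RNA (100 ng per mouse) had been hybridised to Affymetrix Mouse Gene 1.1 ST arrays. The deposited values are log2 intensities that the authors made by RMA (robust multi-array averaging), a background correction, a quantile normalization between arrays and a summary of the probes of each transcript cluster. The RMA software version and the probe set definition of this table are not given in the sources used here. This normalization and summary can compress differences of bright genes. An array gives no read depth; what limits the precision is the number of arrays. Of 35556 clusters, 21218 had exactly 1 gene in the platform annotation, 1881 had several and 12457 were not in it. Symbols were updated through Entrez IDs with the RefSeq table (GRCm38.p6). The cluster with the highest mean was kept for each of 18820 genes, and 14275 genes passed the intensity filter in the study's methods (over 20 on at least 5 arrays) and were tested.

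Groups came from the sample labels, and each array holds 1 mouse. Genes were fitted with limma 3.58.1 in R 4.3.3 (lmFit and eBayes), with the Benjamini-Hochberg adjustment over all genes of a comparison. The block for the Wy effect was the matched pair (7 degrees of freedom left), as mock and Wy mice were matched by body weight within diet per the labels. Correlations of the deviations of paired arrays were 0.531 in C, −0.169 in CR, 0.564 in MF and 0.0839 in INT. Terms for treatment and for body weight class entered the diet fits, and body weight over all diets was fitted with diet and treatment (10 degrees of freedom each) and body weight by diet set from a diet by class model (7). The fits were tested on simulated data first.

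The 10 genes and all gene lists were chosen with earlier results of these data known. The text names the 10 genes in each comparison. It names up to 4 called genes of each list with the smallest p in 5 comparisons (Wy, CR minus C, INT minus CR, INT minus MF, body weight in C and MF), the 3 genes of most similar pattern for the 3 members with the highest SD, and cell type markers called where a member was called. Slc4a1, Retn and the markers named for body weight were chosen after their values were seen. Some listed genes are not reported here. Alternatives were no pair block, median centring, no filter, trend and robust moderation, the mean of all clusters, 1 array code only, 1 treatment only, and leaving out each diet or array.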

Additional observations from a re-analysis of the deposited data

Results flagged for a closer look

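Each of the 10 genes was checked for an array that stood far from the rest of its diet, treatment or body weight group, in 80 groups of 4 or 8 arrays, and 2 stood out, where chance gives about 1 in 20. Apoa4 on the high CR Wy array, at 12.03 log2, lay far below the other 7 Wy arrays, the nearest of which was at 12.67. It is also the lowest Apoa4 value of the series, and without this array the CR minus C difference of Apoa4 was −0.42 with a limma adjusted p of 0.0561. Apoa2 on the low CR Wy array, at 13.22, lay below the other CR arrays, the nearest at 13.28. This gap is small on the log2 scale, and no comparison of Apoa2 was called.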

How the results depend on the processing

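No called value among the 10 genes changed sign under any alternative, but 2 of the 3 called values lost the call in some (Apoa4 in CR minus C and in CR minus MF), while Mttp with Wy was called in all that were run. Of the 117 values not called, 55 changed sign and 4 were called in some alternative. With Wy, 2 of the 10 genes (Apoa5 and Mttp) were called with no replicate block, that is, without the matched pair as a block, with trend and robust moderation, with trend only (an alternative chosen after seeing the data), in arrays of code G067 and without the INT arrays; leaving out 1 array gave 1 to 2. Apoa5 then had limma adjusted p from 0.0369 to 0.0481. With the pair block, leaving out 1 array of a pair gives the same Wy fit as leaving out both. The fit of code G067 and those without either high INT array are therefore the same fit and not separate checks. Mttp ranged from 0.41 to 0.45 over the fits that left out 1 array. Within mock arrays only and within Wy arrays only, 0 genes were called in CR minus C, in CR minus MF and over any diet. For CR minus C, leaving out 1 array gave 0 to 1 (lost in 5 of 16 fits), for INT minus CR 0 to 1 (gained without low CR Wy), for CR minus MF 0 to 1 (lost without high MF mock). For CR minus MF, 2 genes (Apoa4 and Mttp) were called with trend and robust moderation and with trend only. For any diet, 0 were called with median centring and in code G067, and 0 to 2 when 1 array was left out (2, Apoa4 and Apoc2, without low MF mock). For body weight in C and MF, 1 (Apoc2) was called with trend and robust moderation and with trend only, and 0 to 1 when 1 array was left out. The cause of these shifts was not tested. Fits of body weight by diet set within 1 treatment could not be made, as they leave no residual degrees of freedom.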
